A study of Mus musculus with 12 samples.

Results

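The genes described here are 34 macrophage and monocyte genes, taken as a fixed list of symbols and read out in tumors grown from the murine mastocytoma line P815, a mast cell tumor line. Of the 34 genes, 33 had a row of counts that was used and all 33 passed the filter on low counts, out of 18798 genes tested and 32288 rows per library. Counts of Clec7a were not analysed here. The list was split into 9 lineage genes (Csf1r, Adgre1, Cd68, Itgam, Lyz2, Ms4a7, Sirpa, Csf2ra and Lilrb4a), 5 monocyte genes (Cd14, Ly6c2, Ccr2, Chil3 and Cx3cr1), 8 resident and scavenger genes (Mrc1, Cd163, Folr2, Vsig4, Marco, Msr1, Siglec1 and Mertk), 4 lipid-associated genes (Apoe, Trem2, Spp1 and Gpnmb), 4 Fc receptor genes (Fcgr1, Fcgr3, Fcgr4 and Fcgr2b) and 4 pattern receptor genes (Tlr2, Tlr4, Clec4e and Clec7a).

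The study placed tumor cells under the skin of adult DBA/2 mice and measured polyadenylated RNA of 12 tumors, 3 in each of 4 groups. P815-IFNG is a single-cell clone that carries the light-switchable activator GAVPO under an EF-1α promoter, a UAS-driven cassette of Ifng, Cxcl10 and a secreted luciferase, and an mRuby and firefly luciferase reporter. P815-M is a single-cell clone with the reporter alone, so each tumor line stands on 1 clone. Light groups were lit with blue light for 12 h a day over 6 days and dark groups were kept without it. The light-group mice were housed singly in lit cages, and the study's methods do not say this of the dark groups, so housing and light cannot be told apart. All mice carried a tumor, and no library came from tumor-free tissue.

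The libraries were of 2 kinds, which are kept apart below. The 10 shallower libraries held 2211234 to 2946792 counts, and 2 libraries, P815-IFNG light replicate 3 and P815-IFNG dark replicate 3, held 41473500 and 42338096 and are called deep here. The 2 deep libraries also stood apart gene by gene. In them mt-Nd6, which lies on the other mitochondrial strand from most of its neighbours, gave 3.56% and 3.85% of the mitochondrial coding counts, against 29.0% to 47.9% in the other 10. The labels name a kit that keeps strand and the counting was run with default settings, and the part of strand in this difference was not tested. GAVPO separated the lines in every library, with 1040 counts or more in P815-IFNG and at most 4 in P815-M. Ifng levels in CPM, counts scaled to a common library total, were 14.8, 1.80 and 1.83 in the P815-IFNG light libraries and 2.04, 1.06 and 0.709 in the dark ones, so light replicate 2 lay inside the range of the shallower dark libraries.

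Macrophages in a tumor come partly from circulating monocytes and partly from cells that live in the tissue. Monocytes enter through the chemokine receptor Ccr2, and Csf1r, the receptor for the growth factor Csf1, keeps macrophages alive. Tissue macrophages carry scavenger receptors, which take up modified proteins and debris. Macrophages that handle much lipid express Apoe, Trem2 and Gpnmb. Interferon gamma, the product of Ifng, is a classical activator of macrophages. In a bulk tumor, a smaller number of macrophages and less RNA per macrophage cannot be told apart.

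Counts fell on the listed macrophage and monocyte genes in all 12 tumors. Which strand the counts of each kind of library hold was not tested. No P815-M library was deep, so this limit applies to the levels here and to the P815-M comparisons below. Which cells held the RNA was not tested, and no library held P815 cells alone. Per kilobase of exon, the mean levels in the 10 shallower libraries were highest for Lyz2 (332 CPM per kb), the macrophage lysozyme, Apoe (314 CPM per kb), a lipid carrier, and Cd68 (75.7 CPM per kb), a lysosomal membrane protein. The lowest was Vsig4 (0.337 CPM per kb), a complement receptor. In the 2 deep libraries the order was Lyz2 (166 CPM per kb), the Fc receptor gene Fcgr3 (138 CPM per kb) and Apoe (68.0 CPM per kb). Between 0 and 3 of the 33 genes had no count in a library, and a count of 0 allows up to 0.931 to 1.57 CPM in the shallower libraries and up to 0.0695 CPM in the deep ones, for counting error only.

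The kind of library moved these genes unequally. The mean CPM of the 10 shallower libraries was above that of the 2 deep libraries for 24 genes and below it for 9, with a median log2 ratio of 0.90. The ratio ran from a log2 of -2.49 for Fcgr3, with means of 42.8 and 240 CPM, to 4.23 for Gpnmb, with means of 22.5 and 1.197 CPM, and 7 genes differed by over 4 times. Mast cell markers moved with the kind of library too, with sums of 12149 and 9136 CPM in the deep libraries and 1979 to 2847 CPM in the other 10, and their part in the ratios was not tested. For 5 genes the annotated exons are overlapped by a gene on the opposite strand (Csf1r over 873 bases by Hmgxb3, Folr2 over 975 bases by Gm10602, and Lilrb4a, Fcgr2b and Cx3cr1 over 78 to 155 bases), so that their reads may include the neighbour's. Because the 2 kinds of library differed, the fit carried a term for library kind, and the deep pair entered it through its own difference of light and dark, which also moves the fitted comparison of the lines.

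**Figure D1:**
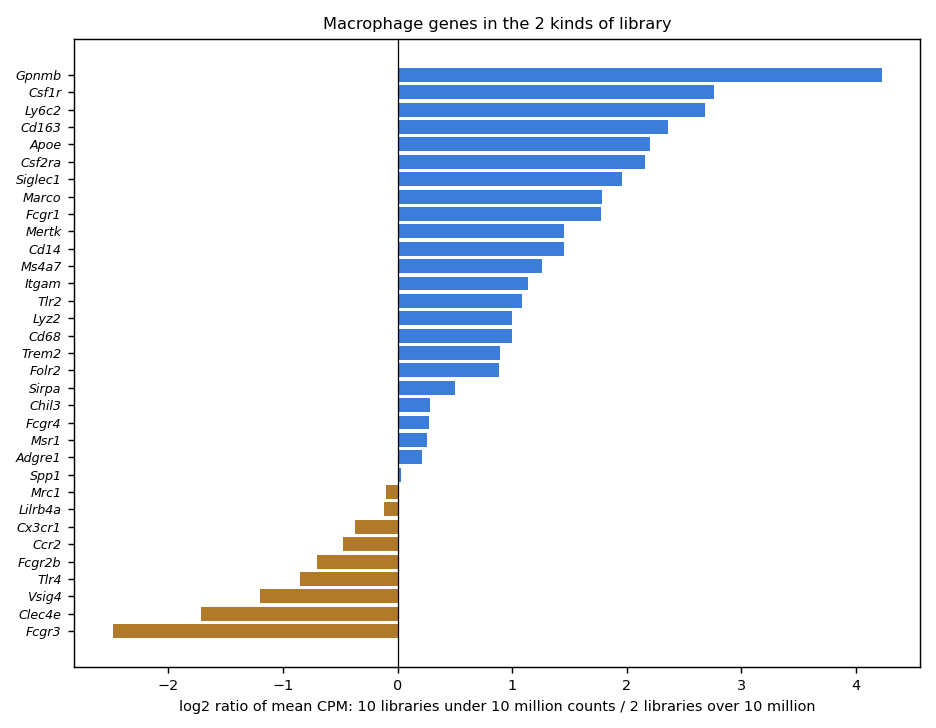
Log2 ratio of the mean CPM in the 10 shallower libraries to the mean in the 2 deep libraries, as 1 bar for each of the 33 genes. Bars run from -2.49 for Fcgr3 to 4.23 for Gpnmb, so the 2 kinds of library cannot be set side by side gene by gene.

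In P815-M tumors most of the macrophage genes had higher levels in light. Of the 33 genes 30 had a positive light effect, with a median log2 fold change of 0.82 against 0.01 over all genes tested. The threshold was an edgeR adjusted p of at most 0.05 and a change of at least 1 on the log2 scale, and 5 genes rose past it. They were Apoe, Gpnmb, Lyz2, Csf2ra and Lilrb4a, and over all genes tested 0.952% were called higher. Between light and dark 15 genes did not overlap, all with light above dark, where 10% of all genes did so, and 15 had an unadjusted edgeR p under 0.05, where 12.5% of all genes had one in either direction. In P815-IFNG tumors, of the 33 genes 17 were positive and 16 negative, the median log2 fold change was 0.00 against -0.03 over all genes, and edgeR called 0 of the 33, with 6 at an unadjusted p under 0.05. Over all genes 0.0106% were called in that comparison and 8.34% had an unadjusted p under 0.05. In the 2 shallower libraries against 2, light lay above dark without overlap for 2 of the 33 genes and below it for 10, where 18% and 21.2% of all genes did so. Of those 2, Vsig4 had 1 count in each of the 4 libraries, so its order came from library size alone. DESeq2 also called 0 of the 33.

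These calls depend on the fit and on single libraries. Without the term for library kind edgeR called 0 of the 33 genes in P815-M, and without the 2 deep libraries 2, Apoe and Gpnmb. Leaving out a P815-M library gave 2 calls without light replicate 1, 0 without light replicate 2, 3 without light replicate 3, 3 without dark replicate 1, 0 without dark replicate 2 and 1 without dark replicate 3. Dark replicate 2 was the lowest of the 6 P815-M libraries for 19 of the 33 genes, and it also had the highest summed skeletal muscle marker level (634 CPM, against 99.6 to 465 in the other 5). Mast cell markers summed to 2235 to 2847 CPM in the P815-M dark libraries and to 2066 to 2104 CPM in the light ones. On unscaled library totals, the P815-M mRuby and luciferase reporter was at 36.6 to 47.0 CPM in light and 57.3 to 71.9 CPM in dark. The median log2 CPM of the 6 fibroblast markers there was 8.12 to 8.24 in light and 7.49 to 7.74 in dark. Their sums overlapped. Among them Dcn passed the adjusted p alone, with a log2 fold change of 0.97 (edgeR adjusted p = 0.0391). The others had an edgeR adjusted p of 0.263 or more. The part of muscle, mast cell, reporter and fibroblast levels in the light effect was not tested.

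**Figure D2:**
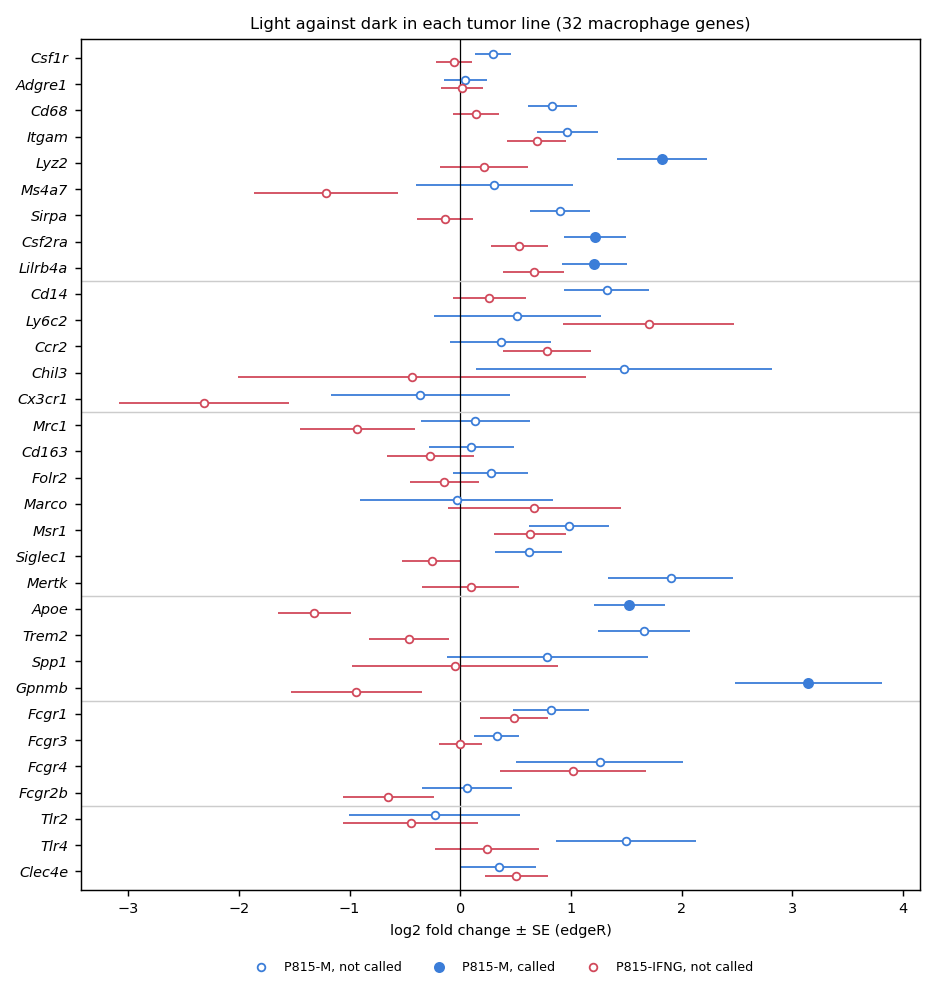
Light against dark log2 fold change with its edgeR standard error for 32 genes, P815-M in blue and P815-IFNG in red, with filled points for calls and grey lines between the sub-lists. Vsig4 is left out, since all 3 P815-M dark libraries had 0 counts; the 5 filled points are all P815-M, from 1.21 for Lilrb4a to 3.14 for Gpnmb.

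Of the 4 lipid-associated genes Apoe and Gpnmb rose in P815-M light, and Trem2 and Spp1 did not pass. Apoe (chr7:19696109-19699188, minus strand, GRCm38) encodes the apolipoprotein that carries cholesterol out of macrophages. Apoe was at 554, 718 and 814 CPM in the P815-M light libraries and at 293, 285 and 147 CPM in the P815-M dark ones. All 3 light values lay above all 3 dark values. The edgeR log2 fold change was 1.53 (SE 0.32, adjusted p = 0.0208), and an exact two-sided permutation test of the 3 light against the 3 dark log2 values gave p = 0.1, the smallest that 3 against 3 allows. In P815-IFNG the order was the other way, with 266 and 585 CPM in light against 1732 and 1313 CPM in dark. The deep pair differed little, with 132 CPM in light and 158 CPM in dark. The log2 fold change in P815-IFNG was -1.32 (SE 0.33, edgeR adjusted p = 0.166), which did not pass. The permutation test of 3 against 3 gave p = 0.3 there.

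The Apoe light effect differed between the lines by -2.84 on the log2 scale (SE 0.46, edgeR adjusted p = 0.0317), and this was the only one of the 33 genes called for that difference, where 0.016% of all genes were called lower. The call was lost with DESeq2 size factors (-2.78, edgeR adjusted p = 0.101), without the library kind term (-3.23, edgeR adjusted p = 1.00) and under a stricter filter on low counts (-2.84, edgeR adjusted p = 0.234). It was also lost when any of P815-IFNG light replicates 1 and 2, the 3 P815-M light libraries or P815-M dark replicate 3 was left out, and over all 12 fits without a library the value lay between -3.35 and -2.38. Adipocyte markers were high where Apoe was high in the shallower P815-IFNG libraries, but not in the deep pair or in P815-M. The 5 genes summed to 117 and 177 CPM in the shallower P815-IFNG dark libraries, and to 17.7 and 5.8 CPM in the light ones. They summed to 43.8 CPM in the deep light library and to 8.6 CPM in the deep dark one. Their sums were 1.9 to 9.4 CPM in P815-M light and 0.4 to 23.5 CPM in P815-M dark. The skeletal muscle gene Myh4 was also called lower for this difference (-14.9, edgeR adjusted p = 0.00108), and the other muscle markers were not. Myh4 was at 13.4 and 19.9 CPM in the shallower P815-IFNG dark libraries and at 0 in the light ones. The part of adipocyte and muscle markers in the Apoe difference was not tested.

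Gpnmb (chr6:49036546-49070929, plus strand), a membrane glycoprotein of lipid-laden macrophages, was at 28.5, 54.6 and 51.0 CPM in P815-M light. It was at 11.7, 1.04 and 1.65 CPM in P815-M dark, from 30, 2 and 4 counts. The light values lay above the dark ones without overlap, with a log2 fold change of 3.14 (SE 0.67, edgeR adjusted p = 0.0214). The size rests on few counts, and it was 5.01 without dark replicate 1 and 2.72 without dark replicate 3. In P815-IFNG, Gpnmb was at 17.3 and 8.77 CPM in light and at 45.6 and 4.36 CPM in dark, so dark replicate 1 alone stood high. The difference of the light effects was -4.08 (SE 0.89, edgeR adjusted p = 0.203). Trem2, the lipid-sensing receptor of these cells, was at 11.4, 16.8 and 30.9 CPM in P815-M light and at 7.81, 7.83 and 3.29 CPM in dark. Its log2 fold change of 1.66 (SE 0.41, edgeR adjusted p = 0.0509) fell just outside the threshold. In P815-IFNG the Trem2 values were 8.85 and 15.1 CPM in light and 21.4 and 17.4 CPM in dark, a log2 fold change of -0.46 (SE 0.36, edgeR adjusted p = 0.796). Spp1, which encodes the secreted protein osteopontin, lay between 0 and 12.5 CPM in the shallower libraries and passed no test.

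The bases upstream of the start sites of called genes are shown for 4 genes that were each called in at least 1 comparison, because PU.1, the factor that specifies macrophages, binds sites with the core GAGGAA. Each run is the 250 bases before the RefSeq start in GRCm38.p6, read 5′ to 3′ on the gene's strand, with GAGGAA on either strand in capitals. The first, for Apoe at chr7:19699189-19699438 on the minus strand, ends at the outermost of 3 annotated starts. The others are Csf2ra at chr19:61228419-61228668 on the minus strand, Gpnmb at chr6:49036268-49036517 on the plus strand and Mertk at chr2:128698665-128698914 on the plus strand.
Apoe: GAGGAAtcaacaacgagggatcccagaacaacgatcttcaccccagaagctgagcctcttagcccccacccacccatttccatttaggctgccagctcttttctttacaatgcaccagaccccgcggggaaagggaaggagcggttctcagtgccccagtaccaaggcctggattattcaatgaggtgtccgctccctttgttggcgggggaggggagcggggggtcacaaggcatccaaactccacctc
Csf2ra: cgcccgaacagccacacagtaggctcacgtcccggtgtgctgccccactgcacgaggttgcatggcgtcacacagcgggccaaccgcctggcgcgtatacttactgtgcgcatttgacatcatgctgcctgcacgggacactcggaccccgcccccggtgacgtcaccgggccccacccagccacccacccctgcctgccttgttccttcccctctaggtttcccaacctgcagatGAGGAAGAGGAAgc
Gpnmb: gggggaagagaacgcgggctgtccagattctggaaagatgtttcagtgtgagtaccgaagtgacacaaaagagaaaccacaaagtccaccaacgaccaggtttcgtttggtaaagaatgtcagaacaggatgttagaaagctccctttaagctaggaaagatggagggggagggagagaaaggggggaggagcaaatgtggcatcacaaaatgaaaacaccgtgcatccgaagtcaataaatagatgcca
Mertk: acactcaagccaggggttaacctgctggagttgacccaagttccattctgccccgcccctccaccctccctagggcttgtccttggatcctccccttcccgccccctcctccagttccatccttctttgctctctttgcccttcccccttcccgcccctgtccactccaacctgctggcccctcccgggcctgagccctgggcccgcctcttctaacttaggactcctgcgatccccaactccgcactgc
GAGGAA occurred once in the Apoe run and 2 times side by side in the Csf2ra run, 14 and 8 bases before the start, and in neither of the others. The same window of Lyz2, which is not printed, held none. Of 26 members with a RefSeq promoter entry, Clec7a among them, 15 held it (57.69%), against 25.85% of 27025 genes. The longer GAGGAAGT occurred in 3 of 26 (11.54%; Fcgr4, Ly6c2 and Spp1) against 2.794% of genes, and it contains GAGGAA. The E-box CACGTG, which is bound by lipid and lysosome regulators of the MiT family, was in 0 of 26 against 6.86% of genes. A match gives only the letters in this window.

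Among the lineage genes all 9 had a positive light effect in P815-M, and 3 rose past the threshold. Lyz2 was at 793, 586 and 470 CPM in P815-M light and at 187, 61.1 and 273 CPM in dark. Light lay above dark without overlap, with a log2 fold change of 1.82 (SE 0.41, edgeR adjusted p = 0.0292). Csf2ra, the receptor chain for the growth factor GM-CSF, was at 64.3, 53.6 and 51.9 CPM in light and at 33.96, 15.1 and 23.0 CPM in dark. Its groups also did not overlap, and the log2 fold change was 1.22 (SE 0.28, edgeR adjusted p = 0.0347). Lilrb4a, an inhibitory receptor, was at 90.3, 75.2 and 118 CPM in light and at 50.7, 26.6 and 44.0 CPM in dark, a log2 fold change of 1.21 (SE 0.29, edgeR adjusted p = 0.0455). Lyz2 and Lilrb4a have near-identical neighbours, Lyz1 and Lilrb4b, and how their reads were divided is uncertain.

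Cd68, Itgam and Sirpa did not overlap between P815-M light and dark but were not called. Cd68 was at 82.0, 110 and 127 CPM in light and at 74.2, 42.8 and 61.3 CPM in dark (log2 fold change 0.83, SE 0.22, edgeR adjusted p = 0.0670). Itgam, the integrin chain CD11b, was at 142, 102 and 115 CPM in light and at 72.6, 38.1 and 71.6 CPM in dark and gave 0.97 (SE 0.28, edgeR adjusted p = 0.0994), and Sirpa, the receptor for the "do not eat" signal CD47, was at 62.3, 62.7 and 88.1 CPM in light and at 52.3, 28.7 and 32.5 CPM in dark and gave 0.90 (SE 0.27, edgeR adjusted p = 0.119). Csf1r and Adgre1, the 2 genes most used to name macrophages, moved little. Of the 5774 exon bases of Csf1r, 873 are overlapped by Hmgxb3 on the opposite strand, so its reads may include the neighbour's. The Csf1r mean was 279 CPM in the 10 shallower libraries and 41.1 CPM in the deep pair. Adgre1, which encodes F4/80, was at 156, 138 and 139 CPM in P815-M light and at 121, 116 and 180 CPM in dark, with dark replicate 3 the highest of the 6. Its log2 fold change was 0.05 (SE 0.19) in P815-M and 0.01 (SE 0.19) in P815-IFNG. Csf1r was at 303, 348 and 255 CPM in P815-M light and at 240, 277 and 224 CPM in dark, and at 278 and 287 CPM in P815-IFNG light and 287 and 292 CPM in P815-IFNG dark. It gave 0.29 (SE 0.16) in P815-M and -0.06 (SE 0.16) in P815-IFNG, each with an edgeR adjusted p of 0.487 or more.

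In P815-IFNG the lineage genes with an unadjusted edgeR p under 0.05 were Itgam (0.69, SE 0.26), Lilrb4a (0.66, SE 0.28) and Csf2ra (0.53, SE 0.26), none of which passed adjustment. Light replicate 1 stood above the other libraries. Itgam was at 224 CPM there and at 101 CPM in light replicate 2, with 102 and 136 CPM in dark and 68.9 against 31.5 CPM in the deep pair. Light replicate 1, which also had the highest Ifng level, was the highest of the 10 shallower libraries for 12 of the 33 genes, and light replicate 2 for 0. Ms4a7, a marker of tissue macrophages, was at 4.42 and 3.41 CPM in light and at 27.6 and 9.05 CPM in dark, a log2 fold change of -1.21 (SE 0.65, edgeR adjusted p = 0.634).

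**Figure D3:**
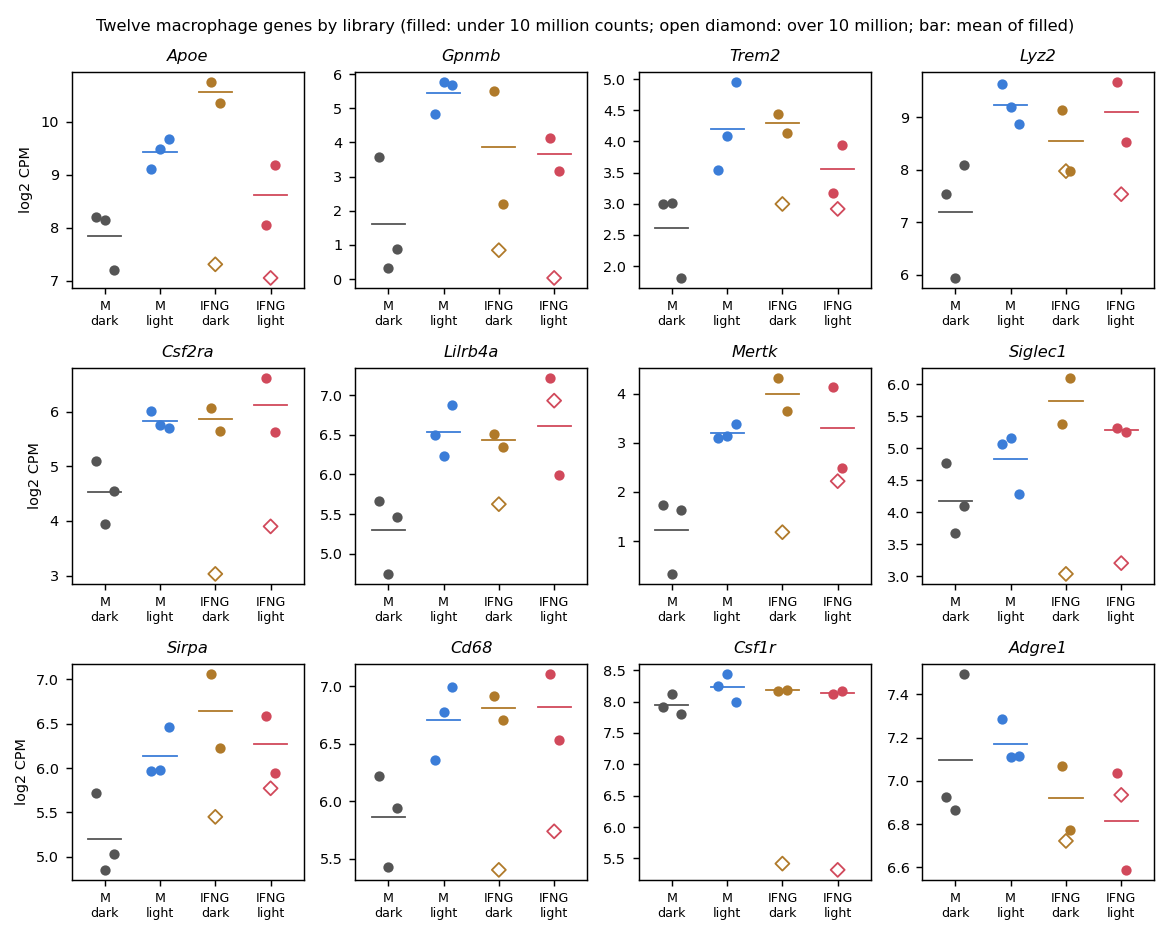
Log2 CPM of 12 genes in each library, grouped by line and light, with filled points for the 10 shallower libraries, open diamonds for the 2 deep ones and a bar at the mean of the filled points. In P815-M the light points of Apoe, Gpnmb, Trem2, Lyz2, Csf2ra, Lilrb4a, Mertk, Sirpa and Cd68 lie above the dark ones, and those of Siglec1, Csf1r and Adgre1 overlap.

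The monocyte genes were low and gave no call in any comparison. Cd14, the lipopolysaccharide co-receptor, was at 18.2, 12.5 and 27.7 CPM in P815-M light and at 7.81, 7.31 and 8.23 CPM in dark. Those groups did not overlap, and the log2 fold change was 1.32 (SE 0.38, edgeR adjusted p = 0.106). In P815-IFNG it was at 30.2 and 12.2 CPM in light and at 18.3 and 25.1 CPM in dark, with overlap. Ccr2 was at 19.2, 7.18 and 6.26 CPM in P815-M light and at 9.76, 7.31 and 7.82 CPM in dark, a log2 fold change of 0.37 (SE 0.46). In the deep pair Ccr2 was at 26.5 CPM in light and at 7.86 CPM in dark, while the shallower P815-IFNG libraries gave 21.7 and 13.2 CPM in light and 19.6 and 11.7 CPM in dark.

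Cx3cr1, the fractalkine receptor of patrolling monocytes and tissue macrophages, had 0 and 1 counts in the shallower P815-IFNG light libraries and 20 and 14 counts in the dark ones. In the deep pair it was at 2.15 CPM in light and at 4.46 CPM in dark. Its log2 fold change was -2.32 (SE 0.77, edgeR adjusted p = 0.353). Ly6c2, the marker of classical monocytes, had 46 and 3 counts in P815-IFNG light against 31 and 13 in dark, and 103 against 3 counts in the deep pair. Its fitted log2 fold change of 1.70 (SE 0.77, edgeR adjusted p = 0.568) did not pass, and light replicate 2 lay below both shallower dark libraries. Chil3, a chitinase-like secreted protein, was led by single tumors, with 38.2 CPM in P815-IFNG dark replicate 2 and 31.8 CPM in P815-M light replicate 3, against at most 7.81 CPM in the other shallower libraries. Ly6c2 and Chil3 also have near-identical neighbours.

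None of the 8 resident and scavenger genes was called for light in either line. Their median log2 fold change in P815-M was 0.45, and that of the 4 lipid-associated genes 1.59, a difference that was not tested. Cd163, the haemoglobin scavenger receptor, was at 343, 296 and 228 CPM in P815-M light and at 211, 398 and 202 CPM in dark, with overlap and a log2 fold change of 0.10 (SE 0.39). Mrc1, the mannose receptor, gave 0.13 (SE 0.49). In P815-IFNG light Mrc1 was at 66.4 and 66.8 CPM, below the dark values of 79.7 and 389 CPM, while the deep pair ran the other way, with 159 CPM in light and 91.3 CPM in dark. In P815-IFNG dark replicate 2 Cd163 and Mrc1 stood far above the other shallower libraries. Cd163 was at 806 CPM there, against 197 to 398 CPM in the other 9, and Mrc1 at 389 CPM, against 44.8 to 132 CPM. Folr2, a folate receptor of resident macrophages, had its highest value in the same tumor, at 99.9 CPM against 26.5 to 56.5 CPM. That library also had the highest summed fibroblast marker level, 12412 CPM against 4481 to 6147 CPM in the other 9, and the part of that in these values was not tested.

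Mertk, the receptor through which macrophages take up dying cells, was at 8.30, 8.62 and 10.3 CPM in P815-M light and at 3.12, 1.04 and 2.88 CPM in dark, from 8, 2 and 7 counts. Its groups did not overlap, and the log2 fold change was 1.90 (SE 0.56, edgeR adjusted p = 0.115). Msr1, the class A scavenger receptor, was at 31.6, 25.9 and 39.4 CPM in P815-M light and at 22.6, 4.18 and 21.0 CPM in dark, without overlap (0.98, SE 0.36, edgeR adjusted p = 0.235). Siglec1, a sialic acid receptor known to be induced by interferons, was at 33.2, 35.4 and 19.2 CPM in P815-M light and at 39.4 and 38.0 CPM in P815-IFNG light. For light against dark it gave 0.62 (SE 0.30, edgeR adjusted p = 0.414) in P815-M and -0.26 (SE 0.27, edgeR adjusted p = 0.863) in P815-IFNG. Marco, another scavenger receptor, varied widely between tumors of the same group, with 88 and 8 counts in P815-IFNG light, 91 and 4 in P815-IFNG dark and 18, 0 and 62 in P815-M dark. Vsig4 had at most 4 counts in any shallower library, and no fold is given.

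Fc receptor and pattern receptor genes gave no call. Fcgr3, the low-affinity activating receptor, was at 35.8, 42.6 and 45.2 CPM in P815-M light and at 35.5, 33.9 and 29.2 CPM in dark, with a log2 fold change of 0.33 (SE 0.21). In P815-IFNG it was at 50.3 and 41.4 CPM in light and at 52.4 and 61.7 CPM in dark. Fcgr4, another activating receptor, was at 7.78, 10.5 and 10.7 CPM in P815-M light and at 7.03, 0 and 4.53 CPM in dark, without overlap (1.26, SE 0.75). In P815-IFNG it was at 18.9 and 10.7 CPM in light and at 25.1 and 4.69 CPM in dark, with overlap (1.02, SE 0.66). The deep pair gave 14.5 CPM in light and 1.96 CPM in dark for Fcgr4. Fcgr2b, the inhibitory Fc receptor, was at 47.5 and 50.2 CPM in P815-IFNG light and at 87.2 and 179 CPM in dark, while the deep pair ran the other way, with 164 CPM in light and 94.4 CPM in dark. Tlr4, the lipopolysaccharide receptor, had 5, 8 and 10 counts in P815-M light and 5, 1 and 3 in dark, and its CPM values did not overlap (fitted fold 2.83, edgeR adjusted p = 0.322). Tlr2, the receptor for bacterial lipoproteins, was at 10.2 and 8.05 CPM in P815-IFNG dark and at 6.25, 3.65 and 0.411 CPM in P815-M dark, a log2 fold change between the lines of 1.63 (SE 0.72, edgeR adjusted p = 0.262). Clec4e, a receptor for mycobacterial glycolipid, gave 0.35 (SE 0.34) in P815-M and 0.50 (SE 0.28) in P815-IFNG.

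**Figure D4:**
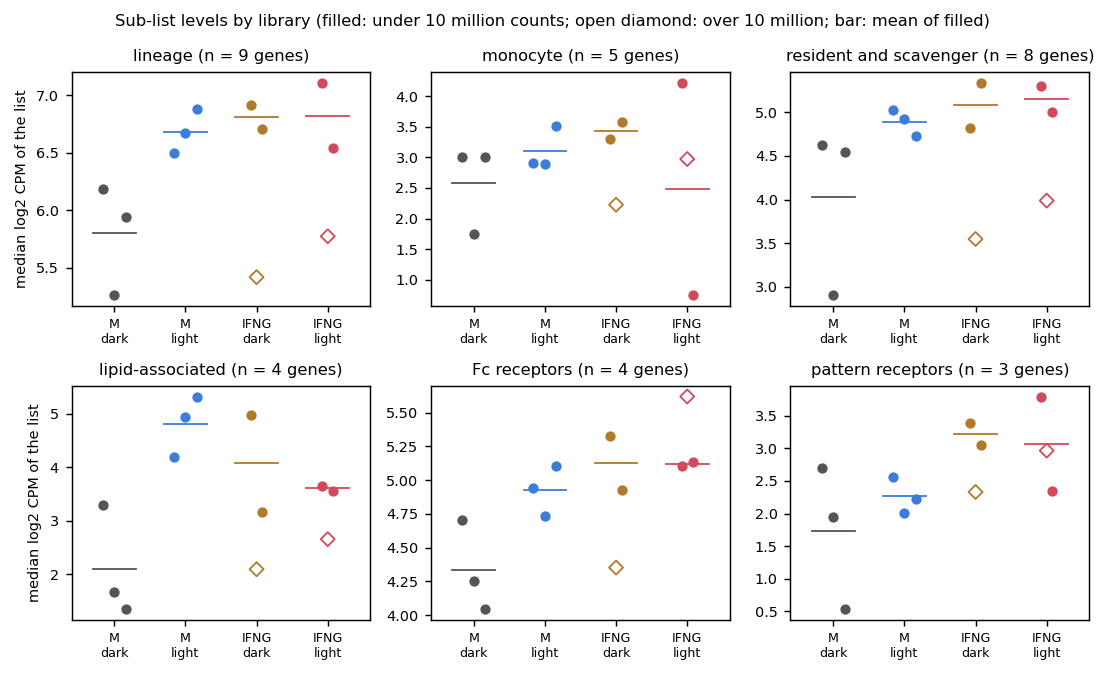
Median log2 CPM of each sub-list in each library, with filled points for shallower libraries, open diamonds for deep ones and bars at the mean of the filled points. In P815-M the lipid-associated medians are 4.19 to 5.32 in light and 1.35 to 3.29 in dark, and the monocyte medians overlap.

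The lines also differed in the dark. P815-IFNG was above P815-M for 30 of the 33 genes, with a median log2 fold change of 0.91 against 0.06 over all genes. EdgeR called 5 genes higher, where 1.12% of all genes were, and 17 did not overlap in the shallower libraries, where 18.6% of all genes did so. Among the 17 was Vsig4, with 1 count in each shallower P815-IFNG dark library and 0 in each P815-M dark library. This comparison and the light effect in P815-M use the same 3 P815-M dark libraries. Apoe was at 1732 and 1313 CPM in P815-IFNG dark, against at most 293 CPM in P815-M dark, a log2 fold change of 2.42 (SE 0.34, edgeR adjusted p = 4.94e-04). Mertk was at 19.9 and 12.4 CPM against at most 3.12 CPM (2.47, SE 0.55, edgeR adjusted p = 0.0200). Siglec1 was at 41.6 and 68.4 CPM against 26.9, 12.5 and 16.9 CPM (1.42, SE 0.30, edgeR adjusted p = 0.0158). Sirpa was at 133 and 74.8 CPM against 52.3, 28.7 and 32.5 CPM (1.33, SE 0.28, edgeR adjusted p = 0.0133). Csf2ra was at 66.7 and 49.96 CPM against at most 33.96 CPM (1.17, SE 0.29, edgeR adjusted p = 0.0363). In the deep P815-IFNG dark library these 5 genes were at 158, 2.05, 8.01, 43.5 and 7.97 CPM, in the order given. With that library, exact permutation tests of 3 against 3 gave p = 0.3, 0.3, 0.6, 0.2 and 0.7 in the same order. Without it the permutation p was 0.2 for Csf2ra and 0.1 for each of the others.

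Cd68 passed the adjusted p alone in that comparison, at 0.86 (SE 0.23, edgeR adjusted p = 0.0483). Trem2 (1.52, SE 0.42, edgeR adjusted p = 0.0603) and Gpnmb (2.31, SE 0.70, edgeR adjusted p = 0.0835) did not pass. Adgre1 again moved little, at -0.25 (SE 0.20). Without the library kind term 0 of the 33 were called. The count was 3 without P815-IFNG dark replicate 1, 8 without the deep P815-IFNG dark replicate 3, 1 without P815-M dark replicate 2 and 2 without P815-M dark replicate 3. P815-IFNG dark had 2 shallower tumors, and both carried the high adipocyte marker sums given beside Apoe.

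In light the lines were closer. P815-IFNG had the higher level for 20 of the 33 genes and the lower for 13, with a median log2 fold change of 0.28 against 0.02 over all genes. EdgeR called 0 of the 33 and DESeq2 also 0, where 0.436% of all genes were called by edgeR, and 3 had an unadjusted p under 0.05, where 11.1% of all genes did. Those 3 were Ccr2 (1.04, SE 0.46), Clec4e (0.73, SE 0.33) and Gpnmb (-1.77, SE 0.63). Gpnmb was at 17.3 and 8.77 CPM in P815-IFNG light against 28.5, 54.6 and 51.0 CPM in P815-M light.

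**Figure D5:**
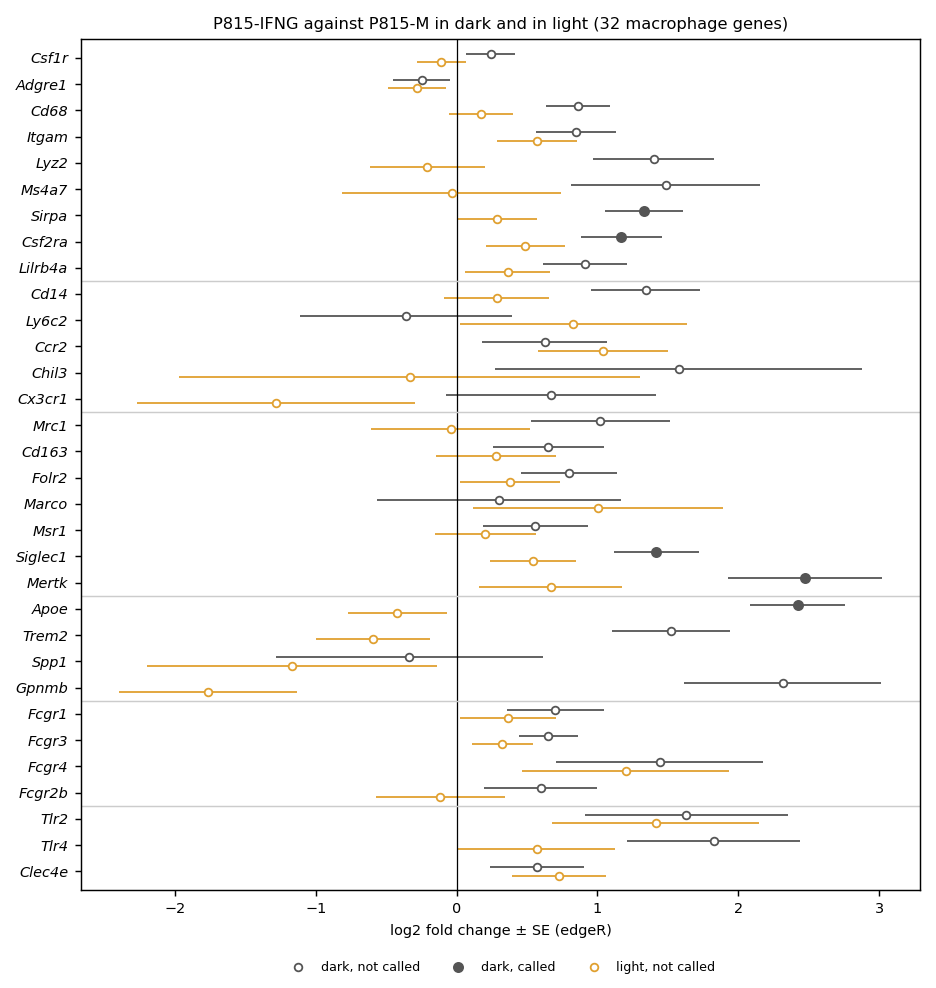
P815-IFNG against P815-M log2 fold change with its edgeR standard error for 32 genes, in dark (grey) and in light (orange), with filled points for calls. The 5 calls, Sirpa, Csf2ra, Siglec1, Mertk and Apoe, are all in the dark comparison, between 1.17 and 2.47.

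Tested as a difference of the light effects, 29 of the 33 genes had the smaller effect in P815-IFNG, with a median of -0.69 against -0.04 over all genes. An unadjusted edgeR p under 0.05 was found for 10, all negative, where 5.73% of all genes had one in either direction, and Apoe alone was called. The lipid-associated genes had a median difference of -2.48 over 4 genes and the Fc receptors of -0.33 over 4. As a mean over both lines, light gave positive values for 27 of the 33 genes, with a median of 0.49, and edgeR called 0 at the fold threshold, where 0.787% of all genes were called. An unadjusted p under 0.05 was found for 14, where 15.8% of all genes had one. DESeq2 also called 0. Lilrb4a (0.94, SE 0.20), Csf2ra (0.87, SE 0.19) and Itgam (0.83, SE 0.19) passed the adjusted p alone, with edgeR adjusted p-values of 0.0208 to 0.0280. As a mean over light and dark, P815-IFNG was above P815-M for 30 of 33, and Mertk was the call (1.57, SE 0.39, edgeR adjusted p = 0.0253), where 0.899% of all genes were called higher. Siglec1 (0.98), Apoe (1.00), Csf2ra (0.83) and Sirpa (0.81) passed the adjusted p alone.

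Other genes of the macrophage programme came from a list of 53, of which 51 were tested. In P815-M light 43 were positive and 8 were called higher, where 0.952% of all genes were. They were C1qa, a complement component made by macrophages, the cathepsin gene Ctss, the myeloid factor gene Cebpa and the cholesterol exporter gene Abca1. Also called were the lipase gene Lpl, the fatty acid receptor gene Cd36, the lipid droplet gene Plin2 and the secreted scavenger gene Cd5l. Cd36 was at 43.6, 29.2 and 51.4 CPM in light and at 10.9, 5.22 and 9.87 CPM in dark, a log2 fold change of 2.23 (SE 0.40, edgeR adjusted p = 0.00764). Of these 8 calls 4 (Abca1, Lpl, Cd36 and Plin2) lie in the 12-gene list of lysosome and lipid handling genes. The factor gene Spi1, which encodes PU.1, gave 0.20 (SE 0.20), and the membrane gene Laptm5, found in many blood cells, gave 0.00 (SE 0.17). The growth factor gene Csf1 gave 0.41 (SE 0.25), and the chemokine gene Ccl2, a ligand of Ccr2, gave 0.89 (SE 0.49) in P815-M and 1.31 (SE 0.47) in P815-IFNG, none of them called.

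In P815-IFNG light against dark 26 of the 51 were positive and 25 negative, and edgeR called 0. An unadjusted edgeR p under 0.05 was found for 9, where 8.34% of all genes had one. In the dark 45 of 51 were higher in P815-IFNG and 11 were called higher, where 1.12% of all genes were. They included C1qa (1.44, SE 0.26), C1qb (1.38, SE 0.30), C1qc (1.17, SE 0.22), Abca1 (1.60, SE 0.22) and Ace (2.31, SE 0.34). Ace, the angiotensin-converting enzyme gene and a marker of patrolling monocytes, was at 70.4 and 87.5 CPM in P815-IFNG dark and at 10.9, 21.9 and 10.3 CPM in P815-M dark. Cybb, Maf, Cebpa, Klf4 and Cd36 were also among those called. In light against the other line 0 were called, with 6 at an unadjusted edgeR p under 0.05, where 11.1% of all genes had one.

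Markers of other cells were checked in the same libraries. The mast cell list was uneven in the 10 shallower libraries. Kit was at 316 to 585 CPM, Cpa3 at 675 to 1100, Gata2 at 361 to 622 and Cma1 at 207 to 545. Srgn was at 71.6 to 199 CPM, Mitf at 18.9 to 35.1 and Mcpt4 at 0.804 to 18.9. Hdc, Tpsb2, Tpsab1 and the mast cell receptor gene Ms4a2 were at 6.04, 5.27, 3.10 and 0.671 CPM or less, and Fcer1a was not tested. The neutrophil genes S100a8 and S100a9 were at 1.17 and 0.447 CPM or less in these libraries. On the same list Cxcr2 was at 23.5 to 52.3 CPM and Csf3r at 7.83 to 23.0 CPM in them. The other tested genes of that list, Retnlg, Mmp8, Mmp9 and Camp, ran from 0 to 25.5 CPM. The neutrophil list summed to 41.5 to 73.6 CPM and the dendritic cell list to 27.6 to 101 CPM there, and the deep libraries had about 200 CPM for the neutrophil list (199 and 211).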

How the data were processed

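RNA of 12 P815 tumors was sequenced by the authors with a stranded mRNA kit. The deposited files hold raw counts per gene, made by the authors with fastp, STAR 2.7.9a and HTSeq 0.13.5 under default settings on mm10 with 3 knock-in sequences; the annotation release is not given in the sources used here. The authors' later steps (mitochondrial gene removal, ComBat-seq and DESeq2 1.32.0) are not in the deposited counts.

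Groups came from the labels. The 13 mitochondrial rows were dropped here, as was any gene below 10 counts in all, and 38 duplicated symbols were summed. EdgeR 4.0.16 (R 4.3.3) was run on all 12 libraries with TMM scaling, a mean per group and a term for library kind (deep or shallower). The quasi-likelihood test gave 7 comparisons, with Benjamini-Hochberg adjustment over 18798 genes, and calls needed an adjusted p no greater than 0.05 with a log2 fold change of 1 or more in size. CPM were on TMM-scaled library sizes, log2 CPM used a prior count of 2, and means of CPM and overlaps used the 10 shallower libraries. Fits were run on simulated data with the same spread for every gene and with changes larger than most of those called here. That run does not cover smaller changes or outlying tumors. Totals were 2211234 to 2946792 counts in 10 libraries and 41473500 and 42338096 in the 2 deep ones, and floors reflect only the error of counting. Nothing says that the 3 tumors of a group came from separate cultures of cells, and p-values measure the spread between these tumors. Exact permutation tests on single genes could not go below p = 0.1 for 3 against 3 or 2 against 3, or 0.333 for 2 against 2.

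The members and lists were chosen with earlier results of these data known. Every called or non-overlapping member was to be given values, and in each sub-list the 2 with the highest mean CPM and the largest light effect in each line. Other macrophage genes were named when called or among the 3 highest of their list, except for an item that is not reported here. Promoters are RefSeq sequences (GRCm38.p6), and positions are from the GENCODE annotation of GRCm38.

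Replicate numbers are shared between groups. Same-numbered libraries deviated together (r = 0.579, 0.578 and 0.874) only in P815-IFNG light against dark, where replicate 3 of both groups is the deep library and replicates 1 and 2 across numbers gave 0.570 and 0.544. Alternatives were DESeq2 1.42.0, other size factors and filters, ComBat-seq (sva 3.50.0), a replicate block, fewer libraries and leaving out each library.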

Additional observations from a re-analysis of the deposited data

Results flagged for a closer look

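The light effect on Apoe, the macrophage apolipoprotein gene, differed between the lines by a direct test of the difference. It was -1.32 in P815-IFNG and 1.53 in P815-M on the log2 scale, a difference of -2.84 (SE 0.46, edgeR adjusted p = 0.0317). Apoe was at 266 and 585 CPM in the shallower P815-IFNG light libraries and at 1732 and 1313 CPM in the dark ones, and at 132 and 158 CPM in the deep light and dark libraries. No test for outlying samples was run. Over the 12 fits that each left out 1 library the difference lay between -3.35 and -2.38, and the call was kept in 6.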

How the results depend on the processing

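Numbers of called genes among the 33 changed with the fit, while Apoe, Csf2ra, Cx3cr1, Gpnmb, Lilrb4a, Lyz2, Mertk, Siglec1, Sirpa and Trem2, the genes recomputed singly, kept their direction in the comparisons and alternatives run for them. For light against dark in P815-M the 5 calls became 0 without the library kind term, 2 without the deep libraries, 0 with the stricter filterByExpr filter, 9 with no filter, 0 with a replicate block and no kind term, and 0 without the deep libraries and P815-M dark replicate 2 (chosen after seeing the data). Leaving out a library gave 0 to 3. For the lines in dark the 5 calls became 0 without the kind term, 13 with no filter, 9 with ComBat-seq, 9 with a replicate block and the kind term, 0 with the block and no kind term, and 2 without the deep libraries and P815-M dark replicate 2. Leaving out a library gave 1 to 8. For the difference of the light effects the 1 call became 0 without the kind term, 0 with DESeq2 size factors, 0 with filterByExpr, 6 with no filter, 2 with ComBat-seq, 2 with the block and kind term and 0 with the block alone, and leaving out a library gave 0 to 2. For light against dark in P815-IFNG the 0 calls became 2 with no filter and 4 with ComBat-seq. With the replicate block 0 were called. For the lines in light the 0 calls became 1 with no filter, 3 with ComBat-seq and 1 with only the 6 libraries compared. For the mean light effect the 0 calls became 3 with no minimum fold, 4 with no filter, 4 with ComBat-seq and 2 with the block and kind term, and leaving out a library gave 0 to 4. For the mean line effect the 1 call became 5 with no minimum fold, 0 without the kind term, 2 with filterByExpr, 4 with no filter, 5 with ComBat-seq, 0 with the block alone and 2 without the deep libraries and P815-M dark replicate 2, and leaving out a library gave 1 to 4. The cause was not tested. The rest of the replicate block fits changed no number of calls by over 1.5 times. Same-numbered libraries did not deviate together outside P815-IFNG light against dark (r from -0.180 to 0.164). Within that comparison only the deep replicate 3 stood apart (r = 0.874). Replicates 1 and 2 gave 0.579 and 0.578 by number and 0.570 and 0.544 across numbers. Each group was centred on a mean that held its deep library. Library kind therefore entered every value, and this check cannot show whether replicates 1 and 2 were paired.

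Over all genes, calls in P815-IFNG light against dark went from 2 to between 0 and 211, in P815-M from 195 to between 0 and 429, for the lines in light from 82 to between 3 and 262, for the lines in dark from 290 to between 2 and 639, and for the difference from 3 to between 0 and 204. For the mean light effect they went from 148 to between 0 and 338, and for the mean line effect from 243 to between 12 and 610. The members' median for the lines in light was -0.34 with the block and no kind term, against 0.28. Shallow depth limits genes under about 10 counts, such as Vsig4, Spp1 and Cx3cr1.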
